A study of Mus musculus with 384 samples.

Results

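Atp5f1, Higd1a and Mrpl54 were the 3 genes of nuclear origin chosen here for the mitochondrial role of their proteins, out of 69 gene assays in a targeted RNA panel measured in mouse brain. They were taken as the rows of the deposited matrix that carry these gene symbols, 1 assay each, a rule that uses symbols and not values. Atp5f1 encodes subunit b of the ATP synthase, part of the stalk that holds the catalytic head of the enzyme still against the rotor. Higd1a encodes a small protein of the inner mitochondrial membrane that is induced by low oxygen and acts on the respiratory chain. Mrpl54 encodes a protein of the large subunit of the mitochondrial ribosome, which makes the proteins that the mitochondrial genome codes for.

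Mitochondria supply most of the ATP that neurons spend on ion pumping and synaptic transmission. Their respiratory chain and ATP synthase are assembled from proteins of both genomes, the nuclear one giving by far the larger number and the mitochondrial one a few core subunits. The 3 genes stand at different points of this system, namely at ATP synthesis, at the regulation of respiration and at mitochondrial translation.

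The data were targeted RNA libraries from micropunches of 12 brain regions of 32 male Balb/c mice. The labels place 8 mice in each of 4 groups that cross a status (MS or Co) with an injection (inject or naive), giving Co naive, Co inject, MS naive and MS inject, and they state postnatal day 9 as the age of every mouse. The study's methods describe other conditions (a rearing environment in the first days of life, then either social defeat or housing with a female in adulthood) and mice killed as adults, and neither source pairs these conditions with the label groups, so the label groups were used as given. Of 384 samples in the labels, 380 had values, and the 4 without values were 1 each in MS naive PVN, MS inject PVN, Co naive vDG and Co inject BNST.

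The region labels were AMY (amygdala), BNST (bed nucleus of the stria terminalis), PFC (prefrontal cortex), PVN (paraventricular nucleus), dCA1, vCA1, dCA3, vCA3, dDG and vDG (dorsal and ventral CA1, CA3 and dentate gyrus of the hippocampus), CER (cerebellum) and Pit. The label Pit is not explained, though a legend in the study's supplement spells out Apit, IPit and PPit as parts of the pituitary. It stands where the study's text names the nucleus accumbens. None of 24 genes listed as markers of the tissues in these labels or of glia was among the assays, so the labels could not be checked against tissue markers. In Pit, dDG and vDG the assay Anxa2 fell into 2 separate ranges, with 31 samples between 1901 and 21258 and 64 between 70.2 and 297.7, and in CER, dCA3 and vCA3 the assay Ociad2 did the same, with 64 samples between 1750 and 3780 and 32 between 392.3 and 843. Both ranges occurred in all 4 label groups of each of these regions. These samples are called the upper and the lower range. The 31 upper samples of Anxa2 and the 32 lower samples of Ociad2 are each about as many as 1 region label holds, and whether region labels were exchanged for part of these samples was not tested, so a level given for 1 of these 6 labels is that of the label and may not be that of 1 tissue. For Atp5f1, Higd1a and Mrpl54, counts of called pairs between sets of regions are also given without the upper range of Anxa2 or without the lower range of Ociad2 where these changed them. For other assays the counts are of all samples only.

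Values were normalized values, that is, reads divided by a size factor of the library, and each assay amplified a short stretch of 1 transcript, so levels are compared between samples and not between genes. Libraries held 12898 to 261007 reads with a median of 139846, of which Atp5f1 took 1632 to 32815 reads, Higd1a 134 to 2973 and Mrpl54 43 to 2326. None of the 3 was at 0 in any library, and all 3 passed any filter used on low values. The fewest reads of all 3 genes came from the same library, vCA1 of the MS inject mouse 99.

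In the mouse genome (GRCm38, the build the labels name as mm10) Atp5f1 is a protein-coding gene on the minus strand of chr3:105942698-105960099, Higd1a on the minus strand of chr9:121848563-121858362, and Mrpl54 on the minus strand of chr10:81264713-81266934. RefSeq now calls Atp5f1 Atp5pb and lists a pseudogene of it on another chromosome, and whether the assay also reads that copy was not tested. Of the 3 genes, Atp5f1 and Higd1a matched an entry in RefSeq's promoters (250 bases before and 50 after the annotated start, GRCm38.p6), which are shown as the start regions of genes whose levels differed between region labels. Capitals mark the core CTCGCGAG of a promoter palindrome, the YY1 motif GCCATCTTG and the NRF1 core GCGCATGC, searched on both strands with no overlap between their matches.
Atp5f1, chr3:105959214-105959513, minus strand: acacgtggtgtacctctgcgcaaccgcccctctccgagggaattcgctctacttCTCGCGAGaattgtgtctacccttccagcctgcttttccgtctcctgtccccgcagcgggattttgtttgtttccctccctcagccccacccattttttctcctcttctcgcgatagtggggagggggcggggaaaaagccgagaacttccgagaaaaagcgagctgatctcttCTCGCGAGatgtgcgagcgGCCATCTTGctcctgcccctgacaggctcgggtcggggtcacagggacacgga
Higd1a, chr9:121857747-121858046, minus strand: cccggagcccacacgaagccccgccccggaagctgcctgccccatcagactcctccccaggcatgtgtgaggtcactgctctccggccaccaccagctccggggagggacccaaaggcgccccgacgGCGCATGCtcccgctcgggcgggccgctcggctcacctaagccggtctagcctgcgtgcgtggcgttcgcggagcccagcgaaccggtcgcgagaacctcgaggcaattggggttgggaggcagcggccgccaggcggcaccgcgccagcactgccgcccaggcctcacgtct
The Atp5f1 promoter held 2 matches of the palindrome core, which occurred in 0.919% of 32851 promoters of the same length, and 1 of the YY1 motif, which occurred in 1.24%. The Higd1a promoter held 1 match of the NRF1 core, which occurred in 2.71%. The letters TCAAGGTCA of the estrogen-related receptor motif (0.423% of promoters) were in neither window. These are matches of letters only.

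Atp5f1, the ATP synthase subunit, had a nearly even level over 9 of the 12 region labels and a lower one in Pit, dDG and vDG. Lowest, median and highest normalized values were 10248, 12859 and 15605 in AMY, 10545, 12563 and 17412 in BNST, and 10277, 12638 and 16919 in PFC. They were 10802, 13065 and 16506 in PVN, 10746, 13316 and 16030 in dCA1, and 10198, 12804 and 15467 in vCA1. The ranges of these 6 regions covered each other almost wholly. In CER they were 11177, 13573 and 16288, in dCA3 10878, 13283 and 17076, and in vCA3 11504, 14017 and 16946. In Pit they were 5583, 8204 and 12531, in dDG 6266, 10147 and 13259, and in vDG 6339, 10917 and 12723, so that these 3 labels reached far below the others while their highest samples overlapped with them. The SD within a region was 9.12% to 12.3% of the mean outside Pit, dDG and vDG and 17.6% to 24.2% in these 3.

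Higd1a, the respiratory chain factor, was highest in CER, dCA3 and vCA3. Lowest, median and highest values there were 926, 1189 and 2009 in CER, 641, 1142 and 1668 in dCA3, and 781, 1100 and 1555 in vCA3. They were 517, 844 and 1404 in AMY, 556, 794 and 1128 in BNST, and 413, 857 and 1265 in PFC. All 3 of these medians lay below that of vCA3, with broad overlap of the samples. In PVN the values were 665, 915 and 1464, in dCA1 525.8, 950 and 1725, and in vCA1 644, 926 and 1452. In Pit they were 408, 778 and 1337, in dDG 322, 885 and 1235, and in vDG 504, 836 and 1219. The SD within a region was 17.8% to 28.1% of the mean.

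Mrpl54, the mitochondrial ribosomal protein, had its lower levels in the 6 regions split by Ociad2 or Anxa2, and so was low in CER, dCA3 and vCA3, where Higd1a was highest. Lowest, median and highest values were 573, 922 and 1280 in AMY, 276, 962 and 1515 in BNST, and 420, 918 and 1669 in PFC. They were 238, 873 and 1572 in PVN, 514, 861 and 1868 in dCA1, and 399, 1032 and 1574 in vCA1. The medians of these 6 regions were thus close to each other, and the samples within each spread widely. In CER the values were 307, 505 and 744, in dCA3 241, 454 and 891, and in vCA3 247, 485 and 1067. In Pit they were 191, 704 and 1313, in dDG 229, 516 and 1325, and in vDG 294, 629 and 1218. Mrpl54 was the most variable of the 3 genes over all 380 samples, with an SD of 41.4% of the mean against 26.8% for Higd1a and 18.4% for Atp5f1.

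**Figure D1:**
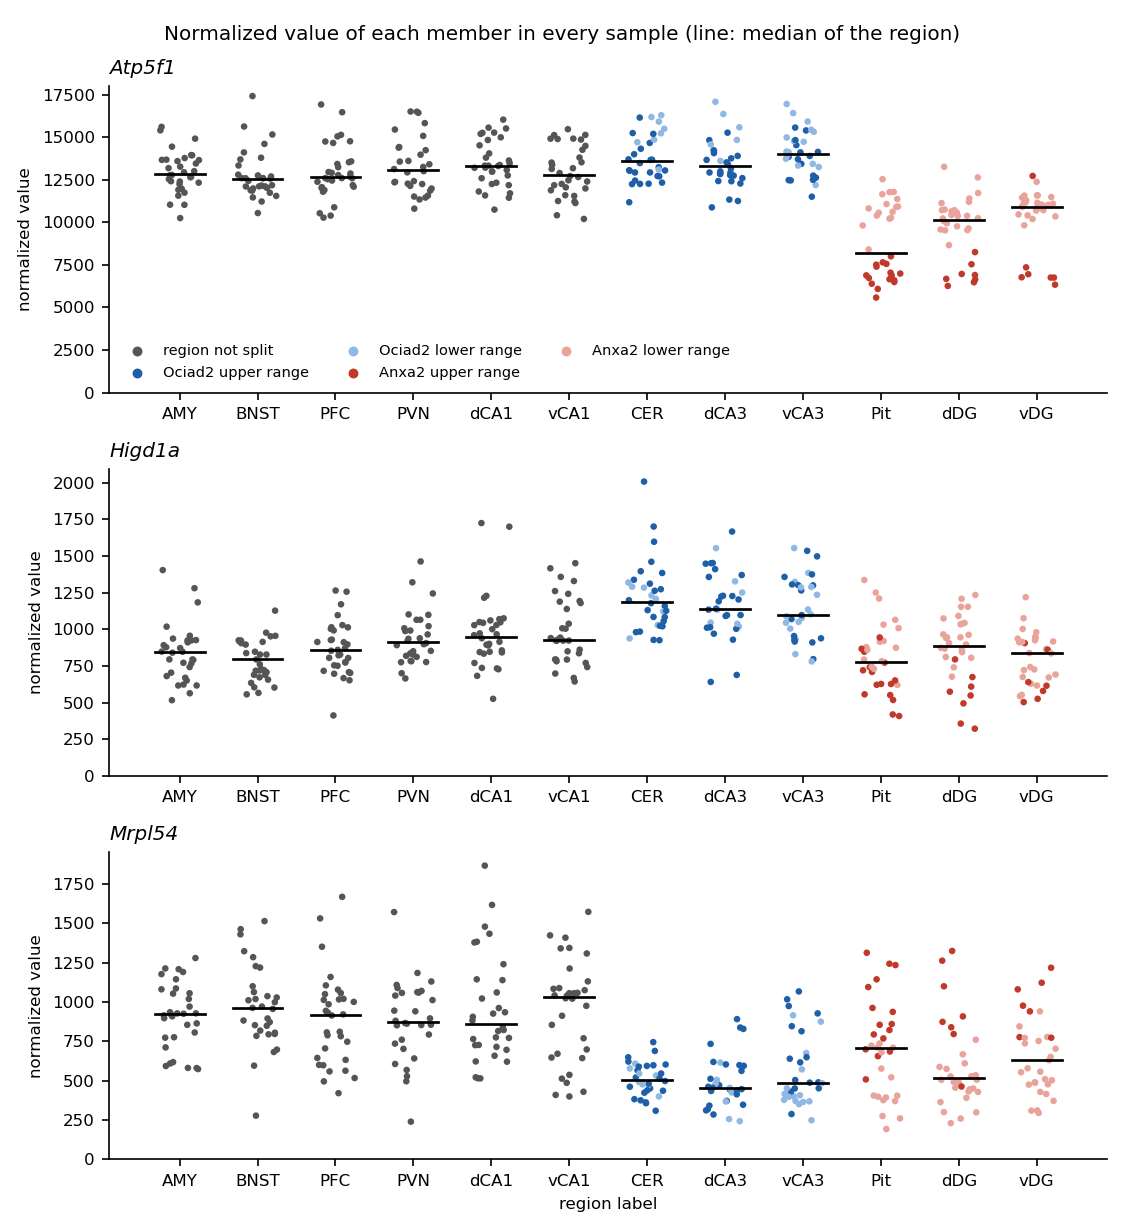
Normalized values of Atp5f1, Higd1a and Mrpl54 (vertical axes, from 0) in all 380 samples by region label, with a line at each region's median and colors for the Anxa2 and Ociad2 ranges. The Atp5f1 samples up to 8250 all belong to the upper range of Anxa2 in Pit, dDG and vDG, and Mrpl54 medians lie between 861 and 1032 in AMY to vCA1 and between 454 and 704 in the other 6 labels.

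Whether the levels differed between region labels was asked with limma on log2(value + 1), all p-values adjusted by Benjamini-Hochberg over the 69 assays and called under 0.1. All 3 genes differed between regions, with adjusted p of 4.99e-55 for Atp5f1, 1.01e-24 for Higd1a and 2.66e-27 for Mrpl54 in limma's F test. This was the rule on this panel, since 97.1% of the assays were called. Over the 6 labels that neither Anxa2 nor Ociad2 split, Higd1a alone of the 3 was called (limma adjusted p = 0.00126), beside 43.5% of the assays, and the calls of Atp5f1 (limma adjusted p = 0.628) and Mrpl54 (limma adjusted p = 0.874) were lost. The methods state that each library plate held 3 regions while the labels name no plate, so region and plate cannot be told apart. Median reads per library moved with the regions, from 94437 to 99713 in AMY, BNST and PFC, 111204 to 123975 in PVN, dCA1 and vCA1, 146657 to 154777 in Pit, dDG and vDG, and 177414 to 183554 in CER, dCA3 and vCA3, and the part of depth in the differences was not tested. In bulk punches, fewer cells of a type and less RNA per cell cannot be told apart either.

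Of the 66 pairs of regions, Atp5f1 differed in 34, Higd1a in 43 and Mrpl54 in 40 (limma, adjusted over all assays and pairs), where 51.2% of all tests over the 69 assays were called, so the counts for the 3 genes lie near the background of the panel. In the order of mean log2 levels, Atp5f1 ran from vCA3 through CER, dCA3, dCA1, PVN, AMY, vCA1, PFC and BNST to vDG, dDG and Pit. Only 2 steps of this order passed the test, BNST over vDG (log2 difference 0.34, SE 0.05, limma adjusted p = 8.51e-09) and dDG over Pit (0.14, SE 0.05, limma adjusted p = 0.0221). Without the upper range of Anxa2, which holds 16 samples of Pit and 8 of dDG, the second call was lost and Pit minus dDG was 0.04 (SE 0.05, limma adjusted p = 0.586). With every library rescaled to the same total the first was lost, and BNST minus vDG was 0.11 (SE 0.07, limma adjusted p = 0.210). No other pair of neighbours passed the test. Higd1a ran from CER, dCA3 and vCA3 through vCA1, dCA1, PVN, PFC, dDG, AMY and BNST to vDG and Pit, with 1 step that passed, vCA3 over vCA1 (0.23, SE 0.08, limma adjusted p = 0.0161). Mrpl54 ran from BNST, dCA1, AMY, vCA1, PFC and PVN to Pit, vDG, dDG, vCA3, CER and dCA3, again with 1 step, PVN over Pit (0.41, SE 0.13, limma adjusted p = 0.00535). That step was lost with rescaled totals, where it was 0.22 (SE 0.12, limma adjusted p = 0.111), and was 0.90 without the upper range of Anxa2.

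Grouping the labels into the 6 that no assay split, the 3 split by Ociad2 and the 3 split by Anxa2, a grouping made after the values were seen, set the 3 genes apart. Atp5f1 was higher in all 18 pairs that set the 6 unsplit regions against Pit, dDG or vDG, with log2 differences of 0.34 to 0.64, and in all 9 pairs that set CER, dCA3 or vCA3 against them, with 0.42 to 0.70. With rescaled totals the first count was 17 of 18, with differences of 0.11 to 0.55, BNST against vDG being the pair that did not pass. Over all assays, 76.6% of the tests of the first kind were called, 22.6% as higher and 53.9% as lower in the unsplit region, and 62.8% of the second kind, 17.9% as higher and 44.9% as lower in CER, dCA3 or vCA3. Over all 69 assays the median difference of those same sets was -0.45 and -0.41, so Atp5f1 was lower in Pit, dDG and vDG where most assays were higher. Within the 6 unsplit regions Atp5f1 differed in 0 of 15 pairs, against 24.4% of the tests over all assays, and in 3 of 15 with rescaled totals. Mrpl54 also differed in 0 of 15 of those pairs, and in 1 of 15 with rescaled totals. Within Pit, dDG and vDG Atp5f1 differed in 2 of 3, and in 0 of 3 without the upper range of Anxa2. Between these 6 and CER, dCA3 and vCA3 Atp5f1 differed in 5 of 18, each time lower in the unsplit region, where 53.1% of the tests over all assays were called. With rescaled totals it differed in 18 of 18, so this difference depends on the scaling (medians of the 18 differences -0.08 as deposited and -0.31 rescaled), without the lower range of Ociad2 it differed in 0 of 18, and without the upper range of Anxa2 in 10 of 18.

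Higd1a was higher in CER, dCA3 and vCA3 than in the 6 unsplit regions in 18 of 18 pairs, by 0.23 to 0.62 on the log2 scale, and higher there than in Pit, dDG and vDG in 9 of 9, by 0.46 to 0.64. Over all assays, 32.1% of the tests of the first kind and 17.9% of the second were called in these directions. Both counts were also complete with rescaled totals, without the upper range of Anxa2 and without the lower range of Ociad2, though without the upper range of Anxa2 the second difference was 0.24 to 0.56. With rescaled totals the first difference was larger, 0.33 to 0.96. Between the unsplit regions and Pit, dDG and vDG it was higher in the unsplit region in 9 of 18 pairs, a share of called pairs below the 76.6% of all assays, but with rescaled totals in 2 and lower in 1, and without the upper range of Anxa2 higher in 3 and lower in 3, so no direction can be given for that comparison. Among the unsplit regions 7 of 15 pairs differed (24.4% of the tests over all assays), the medians of PVN, dCA1 and vCA1 lying above those of AMY, BNST and PFC, and 8 of 15 without the upper range of Anxa2. With rescaled totals that order did not hold throughout, as PFC minus PVN was 0.04 (SE 0.11, limma adjusted p = 0.788) and PFC minus dCA1 0.01 (SE 0.11, limma adjusted p = 0.936). AMY against PVN and dCA1 was no longer called (limma adjusted p = 0.713 and 0.549), while BNST was lower than PFC (-0.30, SE 0.11, limma adjusted p = 0.0154). Within Pit, dDG and vDG 0 of 3 pairs of Higd1a differed, and 1 of 3 without the upper range of Anxa2.

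Mrpl54 was higher in the 6 unsplit regions than in CER, dCA3 and vCA3 in 18 of 18 pairs, with log2 differences of 0.66 to 1.01, an average ratio of 1.77, and without the lower range of Ociad2 in 18 of 18 by 0.42 to 0.94. Over all assays the median difference between these sets was -0.11, and 21% of the tests were called as higher in the unsplit region. Mrpl54 was also higher in the unsplit regions than in Pit, dDG and vDG in 18 of 18 pairs, by 0.41 to 0.79, and in 17 of 18 with rescaled totals, PVN against Pit being the pair that did not pass, where 22.6% of the tests over all assays were called in this direction as deposited. Without the upper range of Anxa2 it was higher in 18 of 18 by more, 0.64 to 1.06, the median of the pairs going from 0.54 to 0.91. CER, dCA3 and vCA3 were lower than Pit, dDG or vDG in 4 of 9 pairs, near the 44.9% of all assays called in this direction, in 2 of 9 with rescaled totals and in 0 of 9 once the upper range of Anxa2 was left out. Rescaling moved the median of all assays from -0.11 to -0.31 for the unsplit regions against CER, dCA3 and vCA3 and from -0.45 to -0.60 for those against Pit, dDG and vDG, and the directions given here for Mrpl54 against both other sets were the same under it. Within CER, dCA3 and vCA3 0 of 3 pairs of Mrpl54 differed, and 1 of 3 without the lower range of Ociad2.

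Within Pit, dDG and vDG, the level of all 3 genes moved with the range of Anxa2, a calcium-dependent membrane-binding protein. Since both values come from the same libraries and the ranges were seen in the data, these are descriptions with no test. Atp5f1 had medians of 6884 in the 16 upper and 10861 in the 16 lower samples of Pit, 6792 in 8 and 10407 in 24 samples of dDG, and 6775 in 7 and 11031 in 24 samples of vDG. The 2 ranges did not overlap in Pit (5583 to 8003 against 8405 to 12531) or in dDG (6266 to 8250 against 8660 to 13259). In vDG, 6 of the 7 upper samples were below every lower sample, and the seventh, the MS inject mouse 83, had 12723, above every lower sample. This library also had the highest Anxa2 value, 21258.

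Higd1a was lower in the upper range as well, with medians of 640 and 897 in Pit, 562 and 945 in dDG, and 615 and 852 in vDG, and its ranges overlapped in each region. Mrpl54 was higher there, with medians of 857 and 404 in Pit, 891 and 489 in dDG, and 976 and 531 in vDG, again with overlap. The ratios of upper to lower medians were 0.614 to 0.653 for Atp5f1, 0.594 to 0.722 for Higd1a and 1.82 to 2.12 for Mrpl54, and with rescaled totals 0.571 to 0.627, 0.550 to 0.671 and 1.73 to 1.86. Left without the upper range, Atp5f1 was still lower in Pit, dDG and vDG than elsewhere in 18 of 18 and 9 of 9 pairs, though by less, 0.21 to 0.35 and 0.29 to 0.42.

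**Figure D2:**
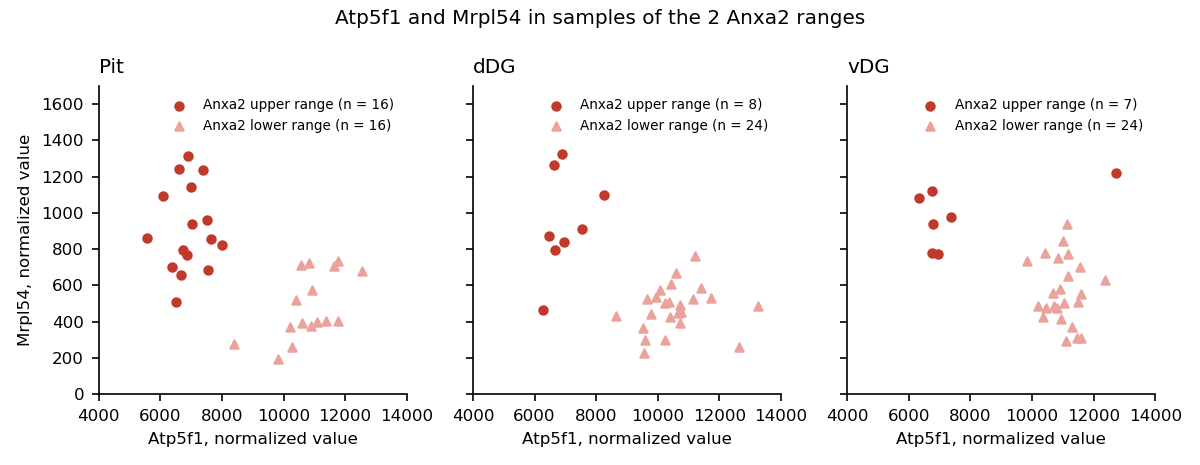
Normalized value of Mrpl54 (vertical axis) against that of Atp5f1 (horizontal axis, which does not start at 0) in each sample of Pit, dDG and vDG, with circles for the upper and triangles for the lower range of Anxa2. Upper samples lie to the left and mostly higher, except the vDG sample at an Atp5f1 value of 12723.

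The ranges of Ociad2, a protein of endosomes and mitochondria, went with differences whose size depended on the scaling. As deposited, Atp5f1 medians were 13050 in 24 upper and 15359 in 8 lower samples of CER, 12922 in 24 and 14705 in 8 of dCA3, and 13775 in 16 and 14439 in 16 of vCA3, and the ranges overlapped in all 3. Higd1a medians were within 0.958 to 1.08 of each other as ratios of upper to lower. Mrpl54 medians had ratios of 0.988 in CER, 1.04 in dCA3 and 1.56 in vCA3, where they were 627 and 403. With rescaled totals the ratio of Atp5f1 went from 0.850 to 0.733 in CER, from 0.879 to 0.698 in dCA3 and from 0.954 to 0.589 in vCA3. In vCA3 that of Higd1a went from 1.08 to 0.637 and that of Mrpl54 from 1.56 to 1.04. In CER and dCA3 the rescaled ratios of Higd1a were 0.853 and 0.876 and those of Mrpl54 0.839 and 0.848.

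Whether the label groups differed was asked within each region with limma, with terms for status, injection and their interaction. For status, 0 of 36 tests of the 3 genes were called (0% of all 826 tests over the assays, of which 22 had an unadjusted p under 0.05). For injection, 0 of 36 were called, against 0.121% of all 826 tests, and 31 of these had an unadjusted p under 0.05. For the interaction, 0 of 36 were called, as were 0% of all tests, 19 of them with an unadjusted p under 0.05. None of the 108 tests of the 3 genes had an unadjusted p under 0.05. The median size of a difference was 0.07 for status and 0.06 for injection over the 3 genes, and 0.12 and 0.12 over all assays, on the log2 scale.

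The lowest p among these tests was that of Mrpl54 by status in CER. There the lowest, median and highest values were 423, 571 and 621 in Co naive, 356, 525.6 and 688 in Co inject, 307, 445 and 593 in MS naive, and 381, 478 and 744 in MS inject. The 4 groups overlapped. The difference of MS minus Co was -0.19 on the log2 scale (SE 0.11, limma adjusted p = 0.823). In its other lowest-p results, Mrpl54 differed by -0.21 with injection in dCA1 (SE 0.17, limma adjusted p = 0.895), where group medians were 827 in Co naive, 667 in Co inject, 1050 in MS naive and 852 in MS inject. Its interaction in vDG was 0.55 (SE 0.41, limma adjusted p = 0.639), with medians of 702, 570, 529 and 657 in the same order.

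For Atp5f1 the lowest p came from status in BNST, where MS minus Co was -0.10 (SE 0.07, limma adjusted p = 0.711). Group medians there were 12644 in Co naive, 12588 in Co inject, 12166 in MS naive and 12051 in MS inject. Injection gave 0.06 in vCA3 (SE 0.06, limma adjusted p = 0.725) and the interaction -0.17 in PVN (SE 0.16, limma adjusted p = 0.964). For Higd1a, status gave 0.19 in vDG (SE 0.12, limma adjusted p = 0.993), injection 0.14 in vCA3 (SE 0.10, limma adjusted p = 0.725) and the interaction 0.35 in PVN (SE 0.21, limma adjusted p = 0.964). The Higd1a medians in PVN were 979 in Co naive, 876 in Co inject, 851 in MS naive and 965 in MS inject, all 4 groups overlapping.

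In each of the 12 regions the 4 label groups overlapped for all 3 genes. The highest group median was 1.02 to 1.23 times the lowest for Atp5f1, 1.08 to 1.35 times for Higd1a and 1.18 to 1.57 times for Mrpl54. Standard errors of the status difference were 0.06 to 0.13 for Atp5f1, 0.09 to 0.17 for Higd1a and 0.11 to 0.25 for Mrpl54 on the log2 scale. With 5 principal components of the residuals as covariates, which take up spread within the label groups and leave the difference itself as it was, Mrpl54 by status in vCA3 was called (0.31, SE 0.09, limma adjusted p = 0.0438), against an adjusted p of 0.730 as fitted first and 0.501 or more under each of 42 other settings. A test of whether a label difference itself differed between regions called 0 of the 3 genes for status (0% of 69 assays) and 0 for injection (0% of 69).

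**Figure D3:**
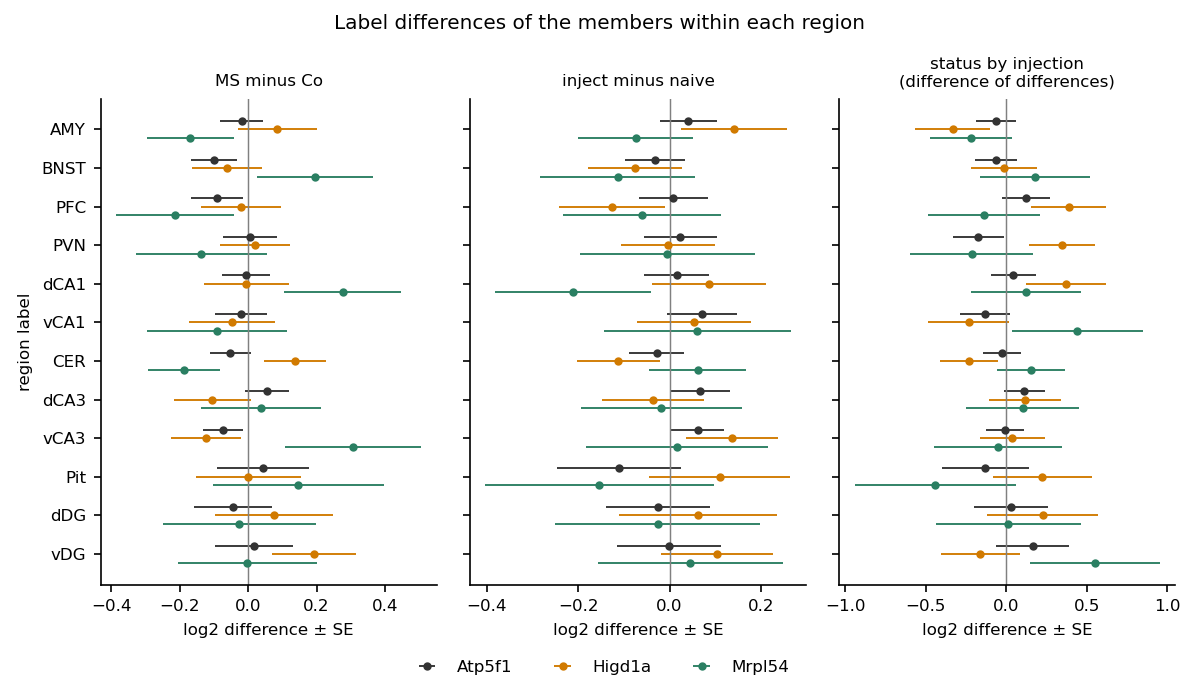
Log2 difference (horizontal axis) with its SE for MS minus Co, inject minus naive and their interaction, for each gene in each of 12 region labels (vertical axis). Differences for status run from -0.10 to 0.06 for Atp5f1, -0.12 to 0.19 for Higd1a and -0.21 to 0.31 for Mrpl54, and none passed the test.

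Whether the 3 genes varied together among mice was asked within each unsplit region and within each range of the split ones, 18 sets of 7 to 32 samples, with Pearson's r on log2(value + 1), a two-sided permutation p from 100000 resamples (exact in sets under 10 samples) and Benjamini-Hochberg adjustment over all pairs of assays in the set. This made 54 tests of pairs among the 3 genes. Higd1a and Mrpl54 ran against each other, with r negative in 17 of 18 sets, a median of -0.40 and a range of -0.84 to 0.37. The pair was called in 7 sets, each time negative, where 15.3% of all 42092 pairs of assays were called and 6.91% were called with a negative r, and the median r over all pairs was 0.02.

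The Higd1a and Mrpl54 values that passed were r = -0.84 (Spearman rho -0.78, permutation adjusted p = 0.00147) in the lower range of Pit, -0.81 (rho -0.79, permutation adjusted p = 0.00469) in the upper range of vCA3 and -0.75 (rho -0.68, permutation adjusted p = 0.000902) in the lower range of dDG. In the lower range of vCA3 r was -0.71 (rho -0.67, permutation adjusted p = 0.0103), in the upper range of dCA3 -0.68 (rho -0.62, permutation adjusted p = 0.00215), in PVN -0.68 (rho -0.47, permutation adjusted p = 0.00411) and in vCA1 -0.57 (rho -0.54, permutation adjusted p = 0.0127). In all 7, mice with more Higd1a had less Mrpl54. Without the 2 samples farthest from the median of Higd1a, r was -0.83, -0.78, -0.64, -0.66, -0.49, -0.45 and -0.48 in the order given. In PVN the rank correlation did not pass (permutation adjusted p = 0.119), and the sample there with the lowest Mrpl54 value, 238, was also the one with the highest Higd1a value, 1464.

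In the remaining 11 sets the pair did not pass the test. The values of r were -0.20 in AMY, -0.40 in BNST, -0.26 in PFC and -0.17 in dCA1. They were -0.17 and -0.29 in the lower and upper ranges of CER, -0.70 in the 8 lower samples of dCA3, -0.41 and -0.19 in the upper ranges of Pit and dDG, and -0.37 in the lower range of vDG. Only the 7 samples of the upper range of vDG gave a positive value, 0.37. Without the 2 samples farthest from the median of Higd1a the sign turned in the 4 sets of 7 or 8 samples, to 0.31 in the lower range of dCA3, 0.44 in the lower range of CER, 0.58 in the upper range of dDG and -0.07 in the upper range of vDG, so these small sets give no direction.

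**Figure D4:**
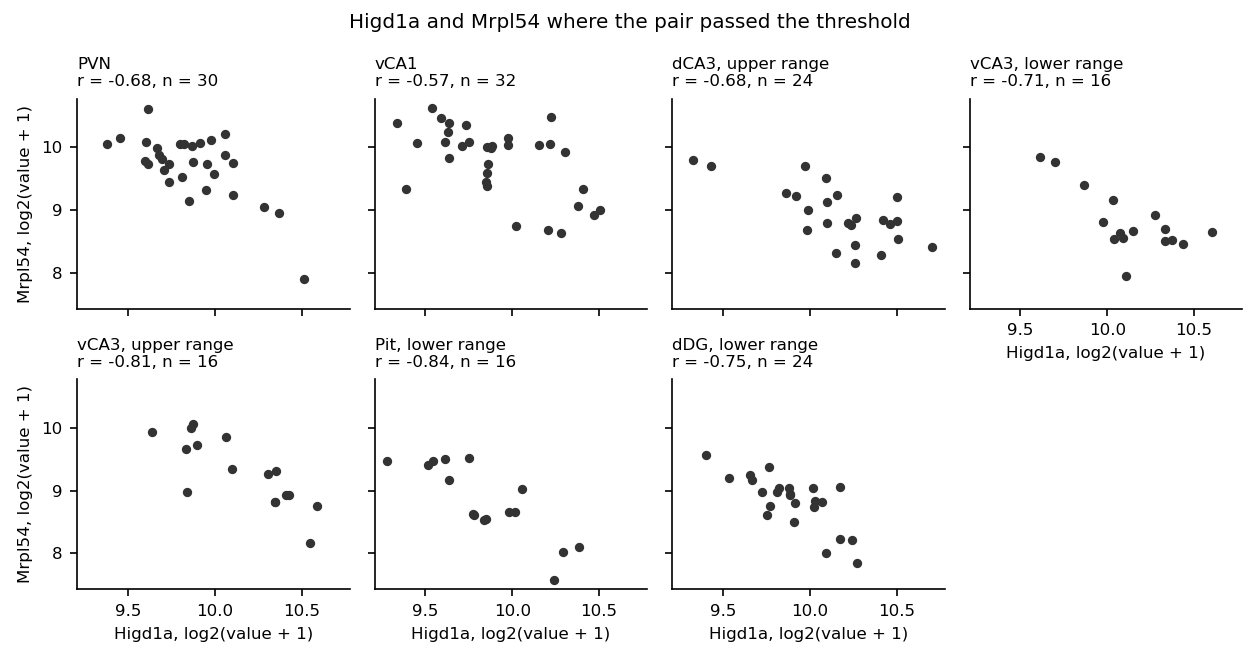
Mrpl54 against Higd1a, both as log2(value + 1), with 1 point per mouse in the 7 regions or ranges where the pair passed the test. The points fall from upper left to lower right in each, with r between -0.57 and -0.84.

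Atp5f1 varied with neither of the other two in a steady way. With Higd1a it had r between -0.67 and 0.63, a median of 0.15 and 13 positive values of 18, and the pair was called once, in the lower range of Pit, with a negative sign (r = -0.67, rho -0.58, permutation adjusted p = 0.0237, -0.47 without the 2 farthest samples). With Mrpl54 it had r between -0.45 and 0.62, a median of 0.10 and 11 positive values, and 3 calls, r = -0.42 in vCA1 (rho -0.38, permutation adjusted p = 0.0875), 0.55 in the lower range of vCA3 (rho 0.43, permutation adjusted p = 0.0783) and 0.62 in the lower range of Pit (rho 0.62, permutation adjusted p = 0.0414). The rank correlation passed in Pit and not in vCA1 (permutation adjusted p = 0.170) or vCA3 (permutation adjusted p = 0.253), and the vCA1 call was also lost among libraries of at least 50000 reads (permutation adjusted p = 0.144). Calls for the pairs with Atp5f1 depended on the scaling. With rescaled totals Atp5f1 and Higd1a were called in 13 of 18 sets, all positive, with a median r of 0.59, and Atp5f1 and Mrpl54 in 5, all negative, with a median of -0.34, whereas Higd1a and Mrpl54 were called in 9, all negative, with a median of -0.42. The 15.3% called over all pairs is for the values as deposited, so whether these counts exceed the panel with rescaled totals cannot be read from it.

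Reads per library also moved with the values. Within regions, r with log2 reads ran from -0.69 to 0.51 for Atp5f1, from -0.69 to 0.52 for Higd1a and from -0.57 to 0.58 for Mrpl54. With the regression on log2 reads removed, Higd1a and Mrpl54 were negative in 16 of 18 sets, with a median of -0.44, and were called in 8. Atp5f1 and Higd1a were then called in 0 sets, so their call in the lower range of Pit was lost, and Atp5f1 and Mrpl54 were called in 1. With the label group means removed Higd1a and Mrpl54 were negative in 15 of 18 and called in 9, of which 1 was positive. The permutation made no allowance for the means taken out, so calls under this setting in sets of 7 or 8 samples are not valid as tests. With the means of the ranges removed instead, and all mice of a region kept together, Higd1a and Mrpl54 were negative in 12 of 12 regions and called in 6. Atp5f1 and Higd1a were called in 0 of these regions and Atp5f1 and Mrpl54 in 2. For these settings too, no share over all pairs is given.

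**Figure D5:**
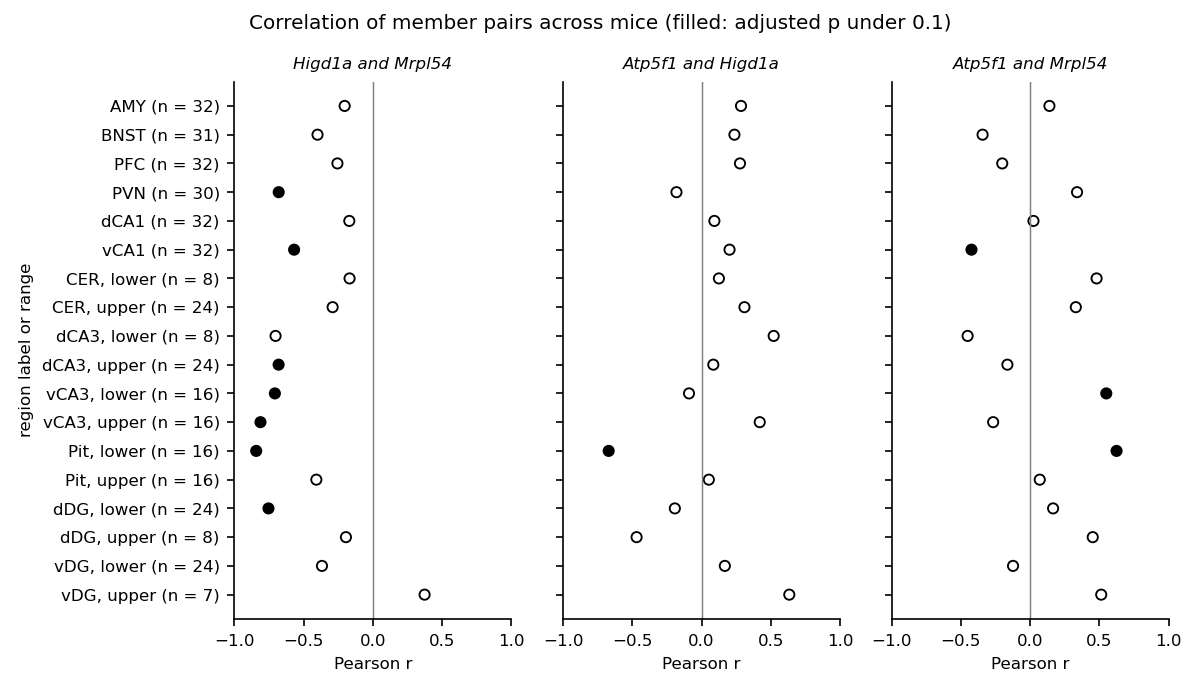
Pearson r (horizontal axis, -1 to 1) of each pair of the 3 genes across mice in 18 region labels or ranges (vertical axis), filled where the adjusted p is under 0.1. The pair of Higd1a and Mrpl54 lies left of 0 in 17 of 18 sets, and the pairs with Atp5f1 scatter on both sides. With rescaled totals, which are not drawn, the pairs with Atp5f1 moved to the right for Higd1a and to the left for Mrpl54.

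Of the other 66 assays, over the same 18 sets, Mrpl54 was called with 321 of 1186 pairs (27.1%), Higd1a with 277 (23.4%) and Atp5f1 with 80 (6.75%), beside 15.3% over all pairs. Mrpl54 was called with Psmb3, a subunit of the proteasome, in 14 sets, with Ccndbp1, which binds cyclin D, in 13 and with Fth1, the heavy chain of ferritin, in 12, positive each time. Higd1a was called with Ctnnb1, the adhesion and Wnt signaling protein beta-catenin, and with Cul2, a scaffold of ubiquitin ligases, in 10 sets each, all positive, with St6galnac4, a sialyltransferase, in 9, all positive, and with Fth1, Psmb3 and the chaperone Hsp90aa1 in 9 each, all negative. Ctnnb1, Cul2 and Cd47 were each called with Mrpl54 in 10 sets, all negative, more sets than the 7 of Higd1a and Mrpl54. Atp5f1 was called most often with Fth1, with the cytosolic ribosomal proteins Rps12 and Rps25 and with Tm2d1, in 5 sets each, all positive.

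As a description, the assays most like each gene over the 12 region means were, for Atp5f1, Cul2 (r = 0.89), the deubiquitinase Stambpl1 (0.85) and the amino acid transporter Slc6a15 (0.82). For Higd1a they were Timm23, a channel subunit of mitochondrial protein import (0.87), St6galnac4 (0.78) and Cul2 (0.69). For Mrpl54 they were the chaperonin subunit Cct7 (0.97), Psmb3 (0.96) and the RNA polymerase II subunit Polr2i (0.90). The region means share library plates, depth and scaling. Among the 3 genes the region means gave 0.67 for Atp5f1 and Higd1a, 0.20 for Atp5f1 and Mrpl54, and -0.50 for Higd1a and Mrpl54.

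Taking deviations from the mean of region and label group over all 380 samples, which include several regions of the same mouse, Atp5f1 was most like Slc6a15 (0.59), the ubiquitin ligase Nedd4l (0.58) and Pitpnm2 (0.47). Higd1a was most like Ctnnb1 (0.56), Cul2 (0.55) and Peli1 (0.44), and Mrpl54 most like Psmb3 (0.66), Cct7 (0.62) and the ubiquitin ligase Nedd4 (0.58). With the means of the ranges removed too, the 3 most like were Tm2d1 (0.33), Fth1 (0.31) and Nedd4l (0.26) for Atp5f1, Ctnnb1 (0.53), Cul2 (0.49) and Dpm2 (0.42) for Higd1a, and Psmb3 (0.68), Ccndbp1 (0.59) and Hsp90aa1 (0.58) for Mrpl54, so Slc6a15 and Pitpnm2 were no longer among those of Atp5f1. Higd1a and Mrpl54 gave -0.55, and -0.45 with the means of the ranges removed too. Atp5f1 gave 0.36 with Higd1a and -0.33 with Mrpl54, values that went to 0.11 and 0.003 once the ranges were removed.

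Of a list of 14 other genes with mitochondrial roles, 1, Timm23, was among the assays. It was higher in CER, dCA3 and vCA3 than in Pit, dDG and vDG in 9 of 9 pairs, by 0.35 to 0.48, as were Higd1a and Atp5f1, where 17.9% of the tests over all assays were called in this direction. Between the unsplit regions and CER, dCA3 and vCA3, Timm23 was lower in 10 of 18 pairs, and 32.1% of the tests over all assays were. The 3 proteins of the small subunit of the cytosolic ribosome on the panel, Rps2, Rps12 and Rps25, differed in 10, 6 and 11 of these 18 pairs, beside 53.1% of the tests over all assays, with Rps2 higher in 6 and lower in 4 and the other two higher in all they were called in.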

How the data were processed

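RNA from micropunches of 12 regions was amplified with TruSeq Targeted RNA assays and sequenced on a MiSeq. The authors removed reads of low quality or length with PRINSEQ lite 0.20.4 (phred under 20, length under 25 bp), aligned them with BWA 0.7.12 to the assay manifest and normalized with DESeq2. The deposited values are a signal, reads divided by a size factor per library. All values (100%) were whole multiples of 1 step per library within a tolerance of 0.02 reads, and the steps gave reads per library. Intervals and errors cover these samples only.

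Groups came from the sample labels. log2(value + 1) was fitted with limma 3.58.1 in R 4.3.3 over all 69 assays, within regions or across them, with Benjamini-Hochberg adjustment. The threshold of 0.1 is the false discovery rate that the study's methods name for differences between conditions, while their models (negative binomial or linear, with surrogate variables) were not refitted. It was used here for correlations too, for which the study took partial correlations and a less strict rate. Assays without variance in a region were not tested there. Correlations used Python 3.11.15 and SciPy 1.17.1 with 100000 permutations, which give p no lower than 1e-05. On simulated data, the limma step recovered 71% of 15 genes of 69 changed by 2-fold in AMY, with 10.9% of calls false, and the correlation step 95% of 20 pairs planted at r = 0.7 in 32 mice, with 4 false pairs.

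The same mouse gave samples of all regions, so mice pair the regions. Deviations from group means of the same mouse had a median r of 0.00174 over 2068 pairs of samples, against -0.00204 for different mice. Named genes were the 3 genes, the lowest-p region of each gene and label term, and the 3 assays most like each gene; genes among those they were called with most often were named after their values were seen. Anxa2 was split at 1000 and Ociad2 at 1200. The members and lists were chosen with earlier results of these data known. Alternatives are given in the closing section.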

Additional observations from a re-analysis of the deposited data

Results flagged for a closer look

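In 14 of 144 groups of 7 or 8 mice (a gene in a region and label group), 1 sample stood apart from the others by a gap that chance alone gives in about 1 in 20 groups. Of the 14, 12 were at the high end of their group and 2 at the low end, and mouse 253 appears for both Atp5f1 and Higd1a.

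For Atp5f1, mouse 247 of Co inject had 17412 in BNST, with the next value at 13336. Mouse 91 of MS naive had 16030 in dCA1, with the next at 13468, and mouse 253 of Co naive had 15467 in vCA1, with the next at 13177. Mouse 255 of Co naive had 6953 in vDG, below the next value of 10408, and was the only sample of its group in the upper range of Anxa2.

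For Higd1a, mouse 105 of MS naive had 1321 in PVN (next 906), mouse 253 of Co naive had 1725 in dCA1 (next 1075), mouse 97 of MS inject had 1701 in dCA1 (next 1061) and mouse 107 of MS naive had 2009 in CER (next 1461). Mouse 249 of Co inject had 1337 in Pit (next 921), and mouse 243 of Co inject had 641 in dCA3, below the next value of 1135.

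For Mrpl54, mouse 235 of Co inject had 1669 in PFC (next 1079), mouse 227 of Co naive had 1868 in dCA1 (next 1022) and mouse 93 of MS inject had 744 in CER (next 545). Mouse 81 of MS inject had 1325 in dDG (next 587), as 1 of 2 samples of its group in the upper range of Anxa2.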

How the results depend on the processing

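Of 815 values of 55 results under alternatives, 804 kept their direction and their side of the threshold, 4 lost and 2 gained calls, 5 moved and 0 reversed. Correlations entered this tally only as a number of calls, so a change of their sign was not scored. Such changes occurred with rescaled totals, where the median r of Atp5f1 and Mrpl54 went from 0.10 to -0.34. The calls of Atp5f1 and Higd1a went from 1, negative, to 13, all positive. Without the 6 regions split by Anxa2 or Ociad2, which leaves 15 pairs, 1 of the 3 genes (Higd1a) differed by region, with 5 pairs called, against 0 for Atp5f1 and 0 for Mrpl54. With 5 principal components, 1 test by status was called. With totals rescaled, 27 of 54 correlations were called (no share over all pairs is given for this setting), and medians moved by over 1 SD to 10759 (Atp5f1, BNST), 11338 (PVN), 14742 (dCA3), 15592 (vCA3) and 1398 (Higd1a, dCA3). Region pairs called with rescaled totals, with no share over all assays given beside them, were 49, 36 and 38 for Atp5f1, Higd1a and Mrpl54. Leaving out each mouse in turn gave 33 to 36, 41 to 44 and 40 to 42. With the mouse as a replicate block, the 3 genes still differed by region with 34, 43 and 40 pairs called, and the block changed no call. In 2 alternatives chosen after seeing the data, they were 37, 42 and 36 without the upper range of Anxa2 and 29, 43 and 41 without the lower range of Ociad2. Tests with edgeR and DESeq2 on reads were planned and not run. At 43 reads, the lowest Mrpl54 count, counting error is largest, and 8 libraries had under 50000 reads.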
